A study of Mus musculus with 2 samples.

Results

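The matrix proteases and their inhibitors described here are the mouse genes whose symbols begin with Mmp, Adam or Timp and a number, or with Adamts. The rule found 83 of the 31053 genes in the count tables, and it used no measured value. Of these, 51 had at least 50 unique molecular identifiers (UMIs, each of which counts 1 captured RNA molecule) over both libraries. The cells came from the whole aorta-gonads-mesonephros region (AGM), the part of the embryo around the dorsal aorta where the first blood stem cells arise, at embryonic day 11. There was 1 library from PDGFRB +/+ embryos (WT) and 1 from PDGFRB -/- embryos (KO), a constitutive null from a line kept as heterozygotes on a C57BL/6J background. Both were dissociated with collagenase type I, itself a protease that digests matrix, and loaded for 7000 cells. The labels give no number of embryos per library.

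Matrix metalloproteinases (MMPs), ADAMs and ADAMTS enzymes are zinc proteases that cut proteins outside the cell. MMPs cut collagens and other matrix proteins, ADAMs mostly release membrane proteins such as growth factors and Notch, and ADAMTS enzymes cut large proteoglycans or process procollagens. Tissue inhibitors of metalloproteinases (TIMPs) block the active site of these enzymes, and ADAMTS-like proteins have the ancillary domains of the ADAMTS enzymes without a protease domain. Around vessels, mural cells and endothelium use these enzymes to remodel the basement membrane.

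The name proteases holds for most but not all members. A zinc-binding site, which has 3 histidines and a catalytic glutamate in fixed spacing, was found in the coding sequences of 60 of the 83 genes. It was found in every MMP, in 20 of 33 ADAMs and in none of the 5 ADAMTS-like genes or 4 TIMPs. The coding bases of the site are shown for 6 members on which the results below turn, because they set the proteases apart from the family members that have no such site. Capitals mark the codons of the 3 histidines, the glutamate and the residue between the last 2 histidines, which is glycine in 55 members and asparagine in 5 ADAMTS proteoglycanases. The sequences are from GENCODE M21 transcripts on GRCm38. They lie at chr14:54437627-54437659 (plus strand) for Mmp14, chr8:92839279-92839311 (plus) for Mmp2, chr7:133961158-133961190 (minus) for Adam12 and chr11:46125050-46125082 (plus) for Adam19, each within 1 coding exon. In Adamts1 (chr16:85799191-85799545, minus) and Adamts2 (chr11:50775403-50776134, plus) the site is split by an intron, which the span includes and the sequence does not.
Mmp14: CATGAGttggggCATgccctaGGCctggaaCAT
Mmp2: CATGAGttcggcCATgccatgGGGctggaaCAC
Adam12: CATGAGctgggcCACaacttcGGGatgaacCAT
Adam19: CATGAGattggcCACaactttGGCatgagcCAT
Adamts1: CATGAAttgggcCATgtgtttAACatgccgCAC
Adamts2: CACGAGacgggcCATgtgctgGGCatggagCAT
Among the 6, the codon between the last 2 histidines is that of asparagine in Adamts1 and of glycine in the others.

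After barcodes under 2000 UMIs or with 10% or more mitochondrial UMIs were removed, 8253 WT and 8165 KO cells were used, with medians of 13321 and 12391 UMIs. The libraries shared 20 barcodes. Pdgfrb, the deleted gene, had 43.1 CPM (UMIs of a gene per 1000000 UMIs of the cells in question) in the WT and 7.09 CPM in the KO library, so its RNA was lower in the library labelled KO but not at 0. Xist RNA was at 793 and 0.415 CPM, and the Y-linked Ddx3y at 0.00666 and 56.7 CPM, so the libraries also differ in the sex of their embryos. Cells were put into 14 classes by marker genes. Of these, 9 are non-stromal and 5 are counted as stromal. The 5 are mural and smooth muscle, sclerotome and chondrogenic, visceral mesenchyme, body wall and limb mesenchyme, and a leftover class called other stroma. Together they are the stroma, with 6485 WT and 6815 KO cells. The leftover class took 3183 WT and 3235 KO cells that were placed in no gated class, and no marker defines it. Its globin RNA (WT 2491 CPM, KO 2154 CPM) exceeded that of every gated stromal class, of which WT visceral mesenchyme was highest with 625 CPM. The cells of this leftover class are therefore not shown to be stroma. Genotype, sex and library cannot be told apart with 1 library each, so no test was made. Intervals in parentheses are 95% intervals for counting error alone, exact Poisson for CPM, exact binomial (Clopper-Pearson) for shares of cells and exact conditional binomial for ratios.

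The 51 detected members are to be read against 51.9% of all genes of the tables, which had at least 50 UMIs. No UMI was seen for 15 members, which at a total of 292397263 UMIs allows up to 0.01026 CPM (3 UMIs). These included Mmp1b, a relative of the collagenases, Mmp3 and Mmp10, which are stromelysins, and Mmp7, matrilysin. The others were the ADAMs Adam1b, Adam6a, Adam6b, Adam20, Adam24, Adam25, Adam26a, Adam26b, Adam29, Adam34 and Adam39. A further 17 members had 2 to 47 UMIs and were not analysed beyond this count. They were Mmp12, Mmp13, Mmp20, Mmp21, Mmp24, Mmp25 and Mmp27, the ADAMs Adam1a, Adam2, Adam3, Adam7, Adam18, Adam21, Adam28, Adam30 and Adam32, and Adamts13. Mmp13, a collagenase, came nearest to the limit with 47 UMIs, and the lowest member above it had 57. By family, all 4 TIMPs, all 7 ADAMTS proteoglycanases, all 3 procollagen N-propeptidases, 8 of 9 other ADAMTS and all 5 ADAMTS-like genes had at least 50 UMIs. So did 5 of 7 membrane-bound MMPs, but only 6 of 15 secreted MMPs, 8 of 20 ADAMs with the zinc site and 5 of 13 without it.

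Most secreted MMPs with few or no UMIs shared a short promoter sequence, but Mmp21 and Mmp27 did not hold it. RefSeq promoters (GRCm38.p6, 250 bases before to 50 after a gene's start) were at hand for 52 members. The AP-1 motif TGANTCA, which reads the same on both strands and is the binding site of Fos and Jun factors, was found in 12 of them. It was found in 7 of 9 secreted MMPs under 50 UMIs (Mmp1b, Mmp3, Mmp7, Mmp10, Mmp12, Mmp13 and Mmp20), in none of the 3 secreted MMPs over it that could be read (Mmp8, Mmp11 and Mmp28), and in 1 of the 30 members with at least 50 UMIs that could be read (Adam19). For comparison, 8.97% of the 27025 genes with a promoter there held it. The other 4 were Adam1b, Adam20, Adam25 and Adam29, which had no UMI. The motif is shown in capitals for the 7 MMPs that share it and low counts, and for Adam19, the expressed member that holds it. The windows lie at chr9:7272470-7272494 (Mmp13), chr9:7347321-7347345 (Mmp12), chr9:7445767-7445791 (Mmp3), chr9:7502270-7502294 (Mmp10), chr9:7628127-7628151 (Mmp20) and chr9:7692018-7692042 (Mmp7) on the plus strand, chr9:7388104-7388128 (Mmp1b) on the minus strand and chr11:46055844-46055868 (Adam19) on the plus strand.
Mmp13: ccaaagtggTGACTCAtcactatca
Mmp12: catcaacagTGAGTCAgatagagga
Mmp3: aagcaattaTGAGTCAgttttcggg
Mmp10: gcacccatgTGAGTCAtgcttagtg
Mmp20: tttgagacaTGAATCAtcacttaca
Mmp7: gtgtgcaaaTGAGTCAcctatttcc
Mmp1b: tacaaagccTGAGTCAtatagcctc
Adam19: tccttcaccTGAGTCAgcgatgctc
The 7 MMP genes lie in the same cluster on chromosome 9 and are related by descent, so they are not independent cases. Mmp8 and Mmp27, which did not hold the motif, lie on the same chromosome between Mmp10 and Mmp20. A match is a description of these letters and not a measured binding site.

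Across the cell classes, the 51 members with at least 50 UMIs were led by mural cells. The mural class had the highest CPM of the 14 classes for 19 members in WT and 15 in KO, among them 12 in both, whereas it was highest for 5.58% and 5.55% of all genes with as many UMIs. The 12 were Mmp2, Mmp14, Mmp23, Adam19, Adamts2, Adamts3, Adamts8, Adamts10, Adamts15, Adamts18, Adamtsl4 and Adamtsl5. The same class was highest in both libraries for 32 of 51 members, against 52.1% of all genes. For 12 of these 32, the interval of the highest class lay above that of the next class in both libraries. Among the mural-led members, this held only for Mmp14, Mmp23, Adamts2, Adamts15 and Adamts18. A level 5 times that of stroma in the same non-stromal class of both libraries was reached by 8 members (Adam15, Adam23, Mmp8, Mmp9, Mmp15, Mmp19, Mmp28 and Timp4), against 17.3% of all genes. Erythroid cells were highest for none, and their CPM is given below as the level in cells that should lack most of the module. Of the erythroid cells, 55 of 730 WT and 18 of 217 KO cells also passed a stromal gate. So did 70 of 154 and 60 of 144 Schwann precursors, and 112 of 208 and 57 of 120 coelomic cells. The counts were 80 of 174 and 164 of 402 in myogenic cells, and 25 of 100 and 21 of 93 in endothelium. They were 35 of 188 and 17 of 156 in macrophages, and 18 of 72 and 15 of 86 in neurons. Levels below include these mixed cells unless their removal is stated.

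**Figure D1:**
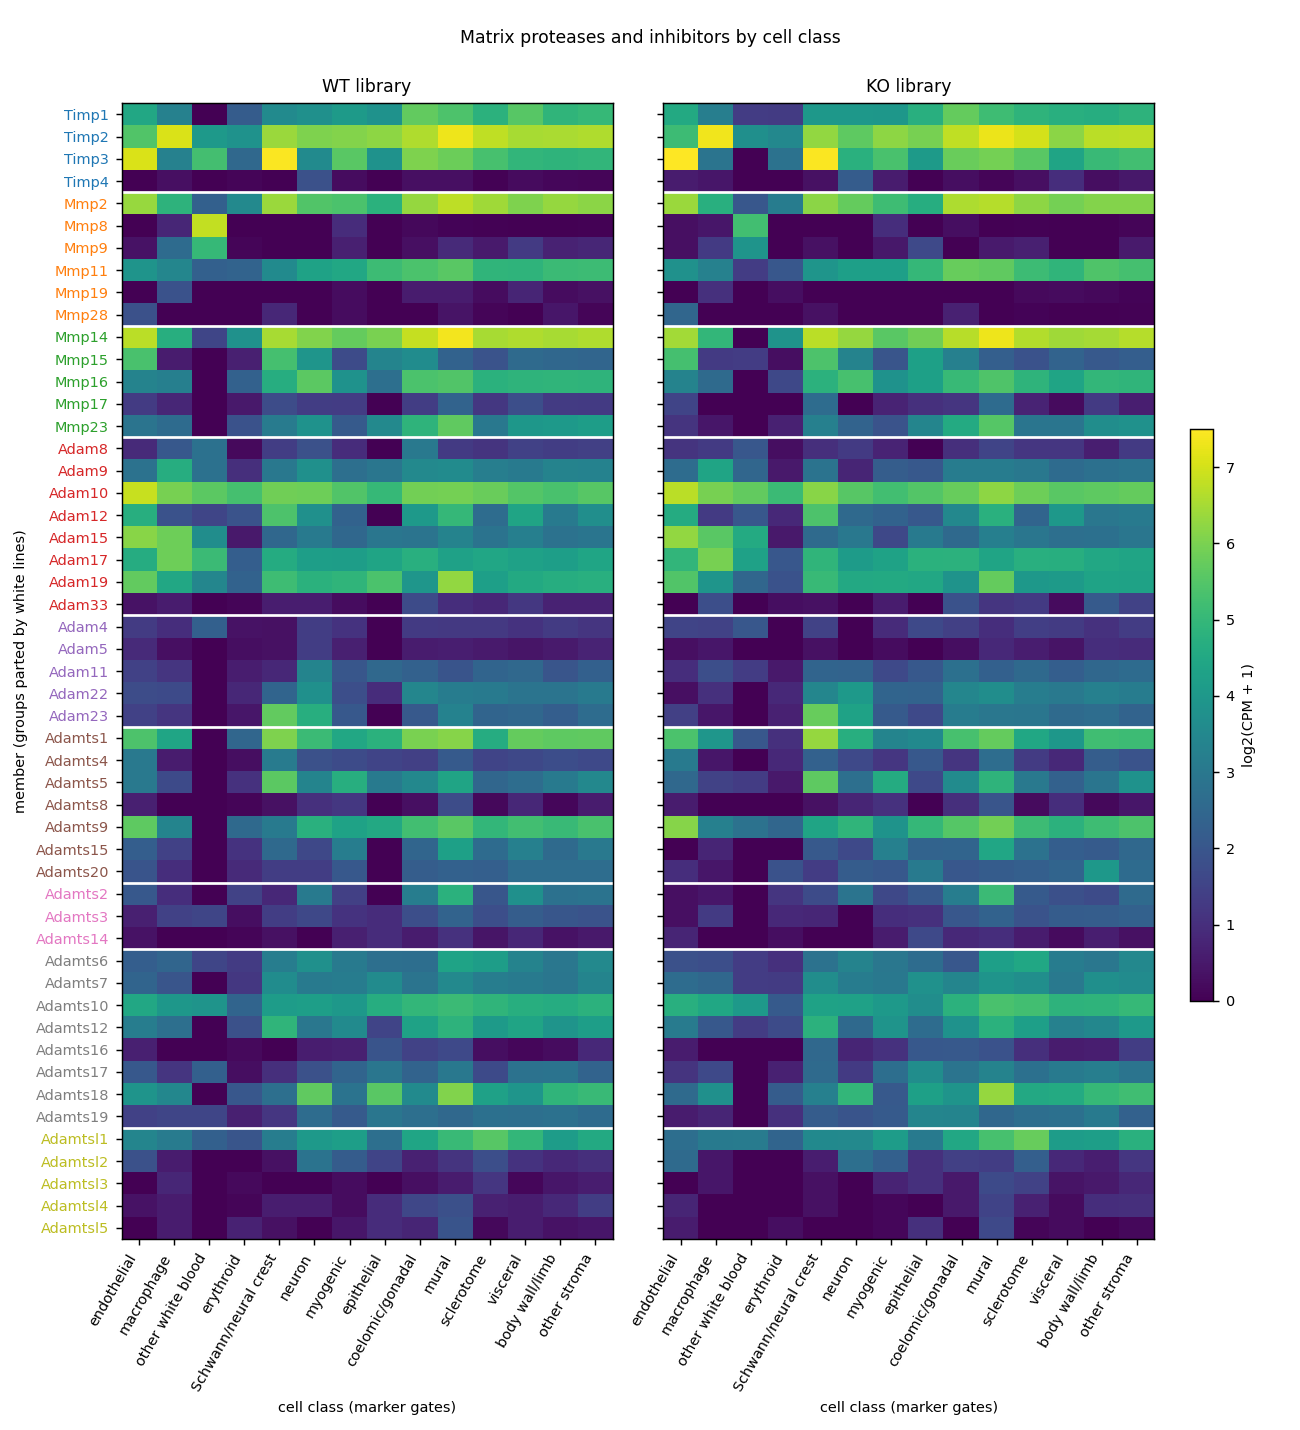
Level of the 51 members with at least 50 UMIs (rows, grouped by family and parted by white lines) in 14 cell classes (columns) of the WT and KO library, as log2(CPM + 1). The mural column is the brightest of the stromal columns for many members, and among the erythroid values Adam10 is the highest, at 37.9 and 33.6 CPM.

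The inhibitors were led by different cells. Timp3, which binds to the matrix and also inhibits ADAMs, stood at 174 (161 to 188) CPM in WT and 175 (162 to 188) CPM in KO Schwann precursors and neural crest, and at 133 (121 to 146) and 181 (168 to 194) CPM in endothelium, against 36.0 and 42.2 CPM in stroma. In endothelium the KO level was higher than the WT level by 0.44 (0.28 to 0.62) on the log2 scale, but without cells that also passed a stromal gate this was 0.17 (-0.02 to 0.36). Timp2, which is needed with Mmp14 to activate pro-Mmp2, was at 135 (124 to 147) and 159 (145 to 175) CPM in macrophages and at 157 (151 to 164) and 154 (148 to 161) CPM in mural cells. Timp1, the classical secreted inhibitor, was highest in the coelomic and gonadal class, at 51.3 (46.6 to 56.4) and 51.5 (45.3 to 58.3) CPM. The leading class was the coelomic one in both libraries for Timp1, whereas for Timp2 it was mural in WT and macrophage in KO, and for Timp3 Schwann in WT and endothelial in KO. After cells that also passed a stromal gate were removed, Schwann precursors led for Timp3 in both libraries, at 216 and 212 CPM against 178 and 200.3 CPM in endothelium. Timp4 was barely seen, with 23 UMIs in WT and 48 in KO, and 5 UMIs in the neurons of each library made up its highest level of 2.62 (0.85 to 6.11) and 3.54 (1.15 to 8.27) CPM.

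**Figure D2:**
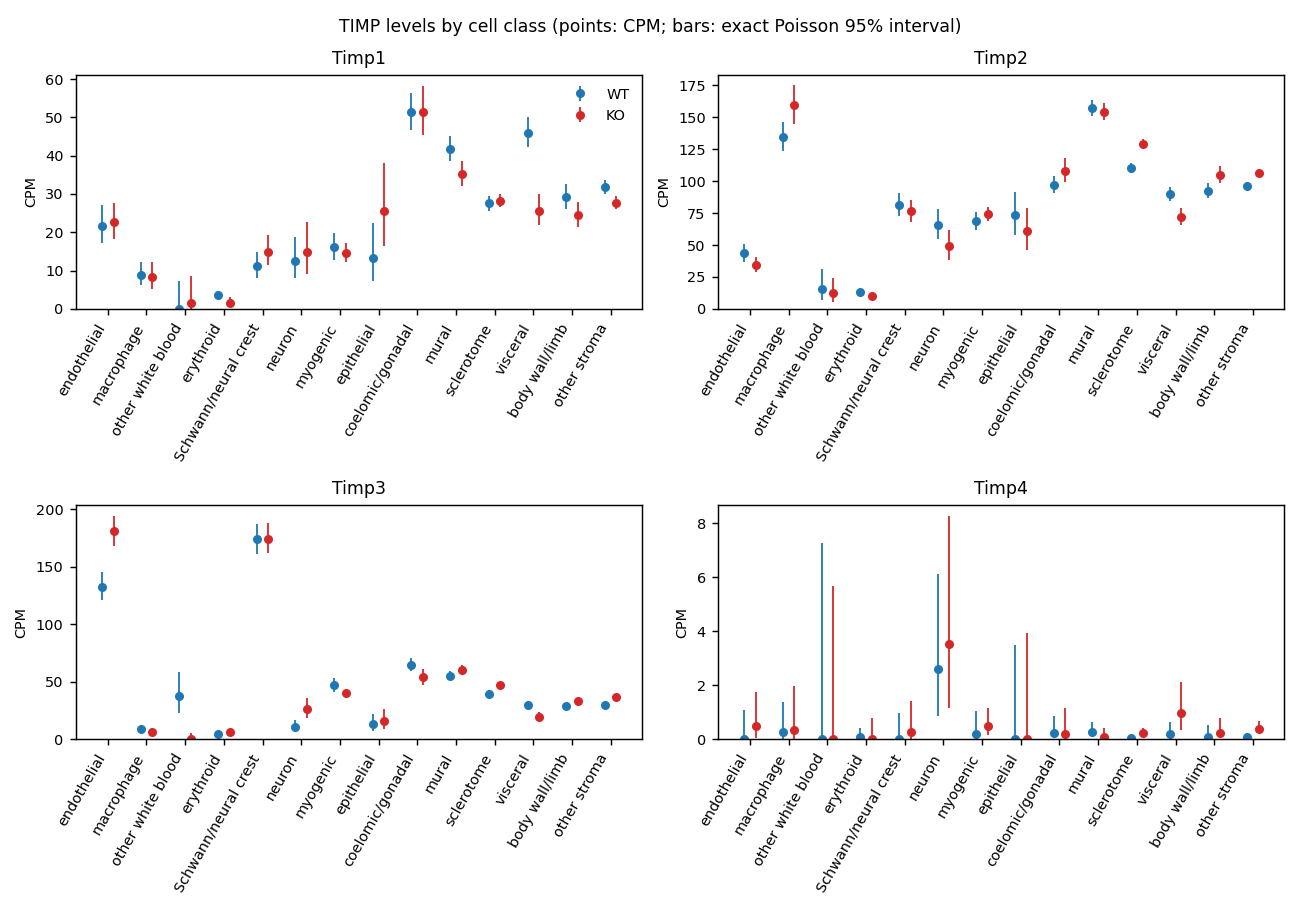
CPM of Timp1 to Timp4 in each cell class (points, WT blue and KO red) with exact Poisson 95% intervals. Timp3 peaks in Schwann precursors at 174 and 175 CPM and in endothelium, Timp2 in macrophages and mural cells, and Timp1 in the coelomic class and in WT visceral mesenchyme.

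Timp1 and the other inhibitors each lie near or within another gene. Timp1 (chrX:20870166-20874735, GRCm38) lies within Syn1, Timp3 (chr10:86300372-86349506) within Syn3 and Timp4 (chr6:115241892-115252205) within Syn2, each on the opposite strand, and Timp2 (chr11:118301069-118355740) overlaps Cep295nl on its own strand. Timp1 is also on the X chromosome, and sex and genotype cannot be told apart in its difference between the libraries.

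The secreted MMPs held both stromal and blood cell genes. Mmp2, gelatinase A, was at 107 (102 to 112) and 101 (95.9 to 107) CPM in WT and KO mural cells, at 81.2 and 74.2 CPM in all stroma and at 10.6 and 7.93 CPM in erythroid cells. Mmp11, which acts on serpins and other targets rather than on fibrillar collagens, was at 34.2 and 38.0 CPM in stroma. Mmp8, neutrophil collagenase, was at 111 (83.6 to 144) and 36.9 (23.6 to 54.9) CPM in white blood cells other than macrophages and at 3 and 4 UMIs in all stroma. These came from few cells, since 15% of the 20 WT and 16.7% of the 24 KO cells of this class held a Mmp8 UMI. Mmp9, gelatinase B, followed it at 31.6 (18.1 to 51.3) and 13.8 (6.32 to 26.3) CPM, with the UMIs in 5% and 4.17% of these cells, which is a single cell in each library. Mmp19 and Mmp28 were rare, at 2.72 (1.36 to 4.88) and 1.07 (0.221 to 3.13) CPM in macrophages and 2.61 (1.19 to 4.95) and 4.56 (2.75 to 7.13) CPM in endothelium.

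Among the membrane-bound MMPs, Mmp14 was broad and mural-led, and Mmp15 marked other cells. Mmp14, a collagenase on the cell surface that activates Mmp2, was at 165 (159 to 171) and 158 (152 to 165) CPM in mural cells and at 105 (103 to 107) CPM in the stroma of either library. Mmp23, which is released from the membrane by its own cleavage, was at 49.4 (46.0 to 52.9) and 45.3 (41.7 to 49.0) CPM in mural cells and at 19.0 and 14.1 CPM in stroma. Mmp16, a close relative of Mmp14, was at 30.3 and 29.9 CPM in stroma. Mmp15 was at 39.4 (33.04 to 46.6) and 38.0 (32.3 to 44.4) CPM in endothelium and at 38.0 (32.1 to 44.6) and 41.2 (35.1 to 48.0) CPM in Schwann precursors, but at 4.05 and 3.33 CPM in stroma. After cells that also passed a stromal gate were removed, the endothelial levels of Mmp15 were 46.4 and 43.6 CPM and its Schwann levels 44.95 and 51.5 CPM.

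The ADAMs with a protease site were spread over several lineages. Adam10, the sheddase of Notch and cadherins, was at 116 (105 to 128) and 105 (95.1 to 115) CPM in endothelium and also at 37.9 (34.7 to 41.3) and 33.6 (28.6 to 39.2) CPM in erythroid cells, where no other member was above 13.4 CPM. Adam15 was at 70.6 (62.1 to 80.1) and 77.4 (69.1 to 86.3) CPM in endothelium and at 56.2 and 46.7 CPM in macrophages, against 7.09 and 6.79 CPM in stroma. Adam17, which sheds tumour necrosis factor and ligands of the epidermal growth factor receptor, was at 56.0 (48.9 to 63.8) and 61.0 (52.2 to 70.9) CPM in macrophages and at 19.6 and 22.5 CPM in stroma. Macrophages also led for Adam9, at 24.3 and 19.6 CPM. Adam12, known from fusing muscle cells and from activated mesenchyme, was highest in Schwann precursors at 41.1 (34.9 to 48.0) and 41.4 (35.3 to 48.3) CPM and lower in mural cells at 30.9 and 26.0 CPM. Adam19, a neuregulin sheddase, was led by mural cells at 76.7 and 52.5 CPM.

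Of the 5 ADAMs without the site, neural classes led for Adam22 and Adam23 in both libraries. Adam23, an adhesion protein that binds Lgi1, was at 51.1 (44.3 to 58.8) and 53.0 (46.1 to 60.7) CPM in Schwann precursors, against 5.38 and 5.66 CPM in stroma. Its Schwann levels were 60.1 and 75.0 CPM once cells that also passed a stromal gate were removed. Adam22, a second Lgi1 receptor, was highest in neurons at 12.6 (8.05 to 18.7) and 15.6 (9.77 to 23.6) CPM. Adam11, of the same subfamily, was at 3.88 and 4.80 CPM in stroma, and Adam4 and Adam5 were at or below 1.45 CPM there.

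Mural cells led for 6 ADAMTS enzymes in both libraries (Adamts2, Adamts3, Adamts8, Adamts10, Adamts15 and Adamts18), and Schwann precursors or endothelium for others. Of the 6, only Adamts2, Adamts15 and Adamts18 had a mural interval above that of the next class in both libraries. Adamts1, a versican-cleaving proteoglycanase, was at 69.2 (65.2 to 73.4) and 51.9 (48.1 to 55.9) CPM in mural cells and at 65.3 (57.5 to 73.9) and 78.8 (70.3 to 88.0) CPM in Schwann precursors. Adamts5, an aggrecanase, was highest in Schwann precursors at 48.0 (41.4 to 55.5) and 48.7 (42.1 to 56.1) CPM, against 9.46 and 11.7 CPM in stroma. Adamts9, which also cuts versican, was at 48.4 (41.3 to 56.3) and 69.2 (61.4 to 77.7) CPM in endothelium, where it was at 49.3 and 59.2 CPM without cells that also passed a stromal gate. The pattern of Adamts2, the main N-propeptidase of procollagen I, was narrower, at 26.7 (24.2 to 29.3) and 33.6 (30.6 to 36.9) CPM in mural cells and 9.30 and 7.62 CPM in stroma. Adamts18 was at 67.2 (63.3 to 71.4) and 78.3 (73.6 to 83.2) CPM in mural cells, and Adamts10, which binds fibrillin, at 33.4 and 39.8 CPM. Among the ADAMTS-like genes, Adamtsl1 was led by the sclerotome class at 45.7 (43.2 to 48.3) and 53.0 (50.7 to 55.3) CPM.

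Shares of cells followed these levels but depended on depth. A UMI of Mmp14 was seen in 57.2% (56.0 to 58.4) of WT and 59.1% (57.9 to 60.2) of KO stromal cells, whose medians were 11854 and 11393 UMIs. In erythroid cells, which should lack the gene and held medians of 16923.5 and 19950 UMIs, the shares were 9.32% and 9.22%. With every cell thinned to 2000 UMIs, the stromal shares of Mmp14 were 15.9% and 15.8% and the erythroid ones 0.685% and 0.922%. The stromal share therefore lay above the erythroid share at either depth, with no allowance for the globin RNA of erythroid cells. It did not differ between the libraries beyond counting error after thinning. For Adam10 the erythroid shares were 44.9% (41.3 to 48.6) and 47.0% (40.2 to 53.9), and 6.58% and 4.15% after thinning.

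Between the libraries, the stroma of KO and WT differed little in the module as a whole. Over the 47 members with at least 50 UMIs in stroma, the log2 ratio (KO over WT) had a median of 0.082, against 0.026 over all genes, with 21 members lower and 26 higher in KO. A single member lay past 2-fold, against 4.06% of all genes. This was Adamtsl5, a fibrillin-binding ADAMTS-like protein, with 72 UMIs in WT and 36 in KO (0.706 and 0.346 CPM, log2 ratio -1.03, -1.65 to -0.43), and its interval does not lie wholly past 2-fold. The median turned to -0.076 when KO cells that held a Pdgfrb UMI were removed. WT cells with such a UMI were kept, and in WT these carried more of the module (below), so the libraries were then not filtered alike. Over all cells, where fewer cells of a type and less RNA per cell cannot be told apart and erythroid cells were 8.85% of WT and 2.66% of KO cells, 4 of 51 members lay past 2-fold, against 5.24% of all genes. Adamtsl3 (0.499 and 1.03 CPM) and Timp4 (0.153 and 0.338 CPM) were higher in KO, and Mmp19 (0.340 and 0.0984 CPM) and Adamtsl5 (0.646 and 0.316 CPM) were lower. All 4 had under 1.1 CPM in either library, and no member had its whole interval past 2-fold in stroma or in all cells.

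**Figure D3:**
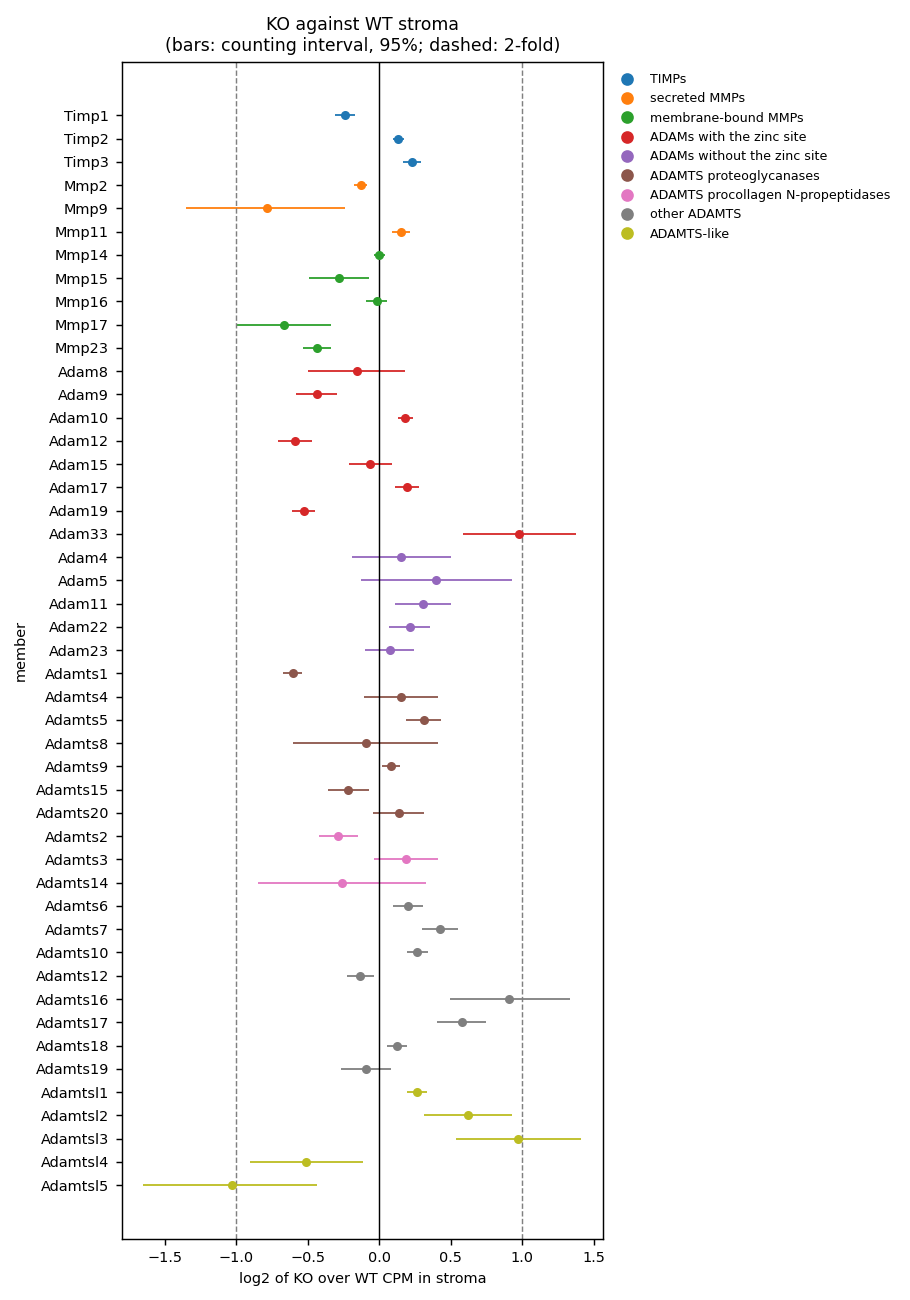
Log2 of KO over WT CPM in stroma for the 47 members with at least 50 UMIs there (points, coloured by family) with exact conditional binomial 95% intervals, and dashed lines at 2-fold. Mmp14 sits at 0, Adamts1, Adam12 and Adam19 lie between -0.5 and -0.7, and Adam33, Adamts16 and Adamtsl3 lie near 1 with wide intervals.

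Members with many UMIs were measured closely. Mmp14 was at 105 CPM in both libraries, and its log2 ratio interval was -0.04 to 0.04. Its partners differed little, with Mmp2 at -0.13 (-0.18 to -0.09) and Timp2 at 0.13 (0.10 to 0.17). Timp3 stood at 0.23 (0.17 to 0.29) and Timp1 at -0.24 (-0.31 to -0.17), so the 2 inhibitors lay on opposite sides of 0. Lower by more than these were Adamts1 at 46.2 and 30.4 CPM (-0.61, -0.67 to -0.54), Adam12 at 13.6 and 9.04 CPM (-0.59, -0.71 to -0.47), Adam19 at 31.1 and 21.5 CPM (-0.53, -0.61 to -0.45) and Mmp23 at 19.0 and 14.1 CPM (-0.43, -0.53 to -0.34). With the mitochondrial limit at 5% in place of 10%, Adamts1 was at -1.19 and so past 2-fold, and Adam19 was at -0.33. With the stromal classes weighted to the same mix, Adamts1 was at -0.52, Adam12 at -0.39 and Mmp23 at -0.28, each above its interval. Without KO cells holding a Pdgfrb UMI, Adam12 was at -0.82, Adam19 at -0.73 and Mmp23 at -0.65. The sheddases Adam10 (0.18, 0.13 to 0.24) and Adam17 (0.19, 0.11 to 0.28) were slightly higher in KO. The intervals excluded 0 for 15 lower and 19 higher members of 47, against 60.5% of all genes, and they hold no variation between embryos.

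By family, the direction was mixed in all but 1 group. All 5 ADAMs without the zinc site had ratios above 0 in stroma, with a median of 0.21, though the intervals of Adam4, Adam5 and Adam23 span 0 and 45.7% of all genes were lower. Adam4 also lies wholly within Cox16 and Gm20498 on its own strand, and any part of these genes in its count was not tested. Further, 4 of 5 membrane-bound MMPs were lower, with a median of -0.28 and Mmp14 level. Of the 8 other ADAMTS, 6 were higher, with a median of 0.23, led by Adamts16 at 0.726 and 1.36 CPM (0.91, 0.49 to 1.34), Adamts17 at 4.54 and 6.78 CPM (0.58, 0.41 to 0.75) and Adamts7 at 8.79 and 11.8 CPM (0.42, 0.30 to 0.55). The 7 proteoglycanases divided into 3 lower and 4 higher, and the 3 N-propeptidases into 2 lower (Adamts2 and Adamts14) and 1 higher (Adamts3). Of the 8 ADAMs with the site, 5 were lower and 3 higher, and Adam33, at 0.814 and 1.60 CPM (0.98, 0.59 to 1.38), had the highest ratio of them.

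Among the stromal classes, the visceral mesenchyme had the most members past 2-fold. There 5 of 33 members lay past 2-fold and all 5 were lower in KO, against 4.36% of all genes. Of these 480 genes, 356 were lower and 124 higher in KO. Adamts2 was at 12.5 and 2.58 CPM in WT and KO (log2 ratio -2.28, -3.13 to -1.53). Adamts1 was at 52.5 and 14.7 CPM (-1.84, -2.17 to -1.52). Adamts15, another proteoglycanase, was at 8.69 and 3.71 CPM (-1.23, -1.95 to -0.56), Mmp23 at 14.7 and 6.62 CPM (-1.16, -1.69 to -0.66) and Adamts12, which cuts cartilage oligomeric matrix protein, at 19.7 and 8.88 CPM (-1.15, -1.60 to -0.72). The median over the 33 members was -0.32, against 0.0072 over all genes, and 24 were lower. For Adamts1 and Adamts2 the whole interval lay past 2-fold.

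The visceral class did not hold the same cells in both libraries. It had 553 WT and 318 KO cells. Its Barx1 RNA, which marks stomach mesenchyme, was at 208 and 2.10 CPM in WT and KO, and its Dcn RNA (decorin) was at 326 and 30.5 CPM. Other classes differed too. In all stroma, Barx1 was at 38.5 and 0.816 CPM and Dcn at 170 and 61.3 CPM. Barx1 was at 92.5 and 1.65 CPM in the coelomic class, and the summed mural markers were at 5907 and 4070 CPM in the mural class. Ratios in these classes therefore need not compare like cells. After all cells with a Barx1, Tlx1 or Nkx2-5 UMI were removed, 283 WT and 308 KO visceral cells remained. The share of all genes past 2-fold, 4.36% in the whole visceral class, is not given for these remaining cells. The count of members past 2-fold there is therefore no result about the members. Of 31 members, 7 lay past 2-fold, all lower in KO. They were Adamts1 (-2.29, -2.64 to -1.95), Adamts2 (-2.89, -3.85 to -2.05), Adamts12 (-1.51, -1.98 to -1.06), Adamts15 (-1.51, -2.28 to -0.78), Mmp23 (-1.31, -1.88 to -0.77), Adamtsl1 (-1.32, -1.67 to -0.98) and Timp1 (-1.19, -1.48 to -0.91). Cells of the same kind in which no UMI of those 3 genes was captured would remain. The part of the mix of cells in these differences was not tested.

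The other stromal classes showed few differences of that size. No mural member of 39 lay past 2-fold (against 2.75% of all genes), 1 of 40 did in the sclerotome class (2.95%), 2 of 34 in body wall and limb mesenchyme (2.59%) and 2 of 42 in the other stroma (3.38%). In the sclerotome class this was Adamts17, at 2.22 and 5.86 CPM (1.40, 0.99 to 1.84). In body wall and limb mesenchyme, Adamts20, a proteoglycanase, was at 5.36 and 15.01 CPM (1.49, 1.03 to 1.95) and Adamts2 at 6.01 and 2.28 CPM (-1.39, -2.18 to -0.67). In the other stroma, Adam33 was at 0.657 and 1.76 CPM (1.43, 0.73 to 2.17) and Mmp17 at 1.40 and 0.532 CPM (-1.39, -2.23 to -0.61).

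Of the 33 members with at least 50 UMIs in each of the 5 stromal classes, 7 were lower in KO in all 5 (Adam9, Adam12, Adam19, Adamts1, Mmp2, Mmp15 and Mmp23) and 6 were higher in all 5 (Adam10, Adam22, Adamts10, Adamts17, Adamts18 and Mmp11). Of all genes, 41.8% kept 1 direction in this way, so the share of the members is near that of the genes. Of the 41 members with at least 50 UMIs in 2 or more of these classes, 7 had intervals on opposite sides of 0 in different classes, against 7.22% of all such genes. For Adam19 and Adamts1 the interval lay below 0 in each of the 5 classes. In mural cells, the difference of Adam19 was -0.55 (-0.68 to -0.41) and that of Adamts1 -0.42 (-0.56 to -0.28).

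**Figure D4:**
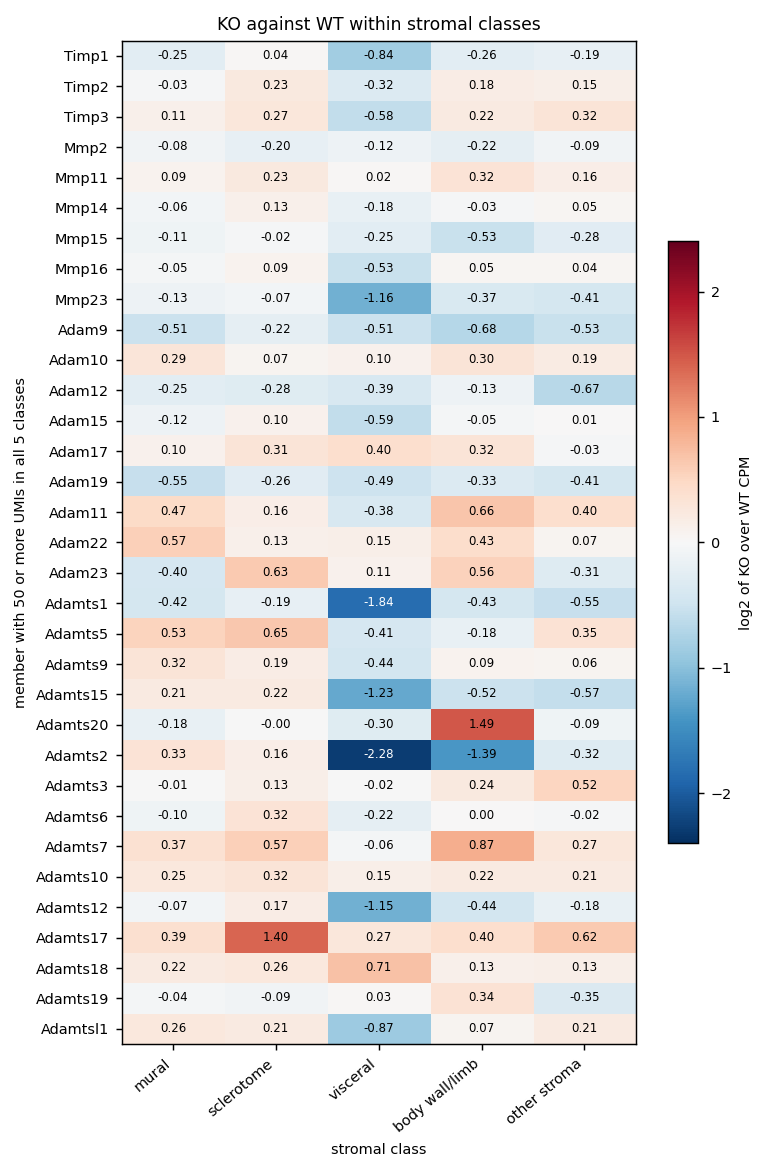
Log2 of KO over WT CPM (printed and coloured, blue lower and red higher in KO) for the 33 members with at least 50 UMIs in all 5 stromal classes. The visceral column holds the lowest values, down to -2.28 for Adamts2, whereas mural values lie between -0.55 and 0.57.

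Outside the stroma, few members had enough UMIs to compare the libraries. Past 2-fold lay 1 of 20 members in endothelium (against 2.11% of all genes), none of 16 in macrophages (2.18%), 2 of 15 in erythroid cells (4.92%), 2 of 25 in Schwann precursors (2.71%), 1 of 14 in neurons (2.42%), 1 of 27 in myogenic cells (2.07%) and 2 of 32 in the coelomic class (3%). The lowest ratio was that of Adam8, a sheddase of blood cells, which had 60 UMIs in the WT and 5 in the KO coelomic class (7.18 and 1.03 CPM, -2.80, -4.47 to -1.49). Adamts1 was lower in KO myogenic cells at 21.7 and 9.54 CPM (-1.19, -1.59 to -0.78). The erythroid members were Adamts1, with 63 and 5 UMIs, and Timp1, with 49 and 7, of which 18 and 0 and 15 and 1 UMIs remained without cells that also passed a stromal gate. In endothelium Adamts18 was lower at 13.6 and 5.05 CPM (-1.43, -2.25 to -0.66). Adamts9 was higher in KO Schwann precursors at 7.49 and 19.7 CPM (1.40, 0.76 to 2.06), as were Adam22 there, Timp3 in neurons from 21 and 37 UMIs (1.25, 0.44 to 2.10) and Adam23 in the coelomic class. Without cells that also passed a stromal gate, the ratios were -3.40 (-6.50 to -1.43) for Adam8, -1.15 for Adamts1 in myogenic cells, -2.25 for Adamts18, 3.51 (1.85 to 5.86, from 3 and 35 UMIs) for Adamts9 and 1.62 for Timp3, all on the same side of 0. Adam22 (0.88, -0.45 to 2.32) and Adam23 (0.65, -1.78 to 3.07) were then within 2-fold, with intervals that span 0.

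In the WT stroma, cells with a Pdgfrb UMI carried more of the module. The study names perivascular cells by PDGFRβ and NG2 (gene Cspg4), and the same gates on UMIs gave 391 cells with both (DP), 2118 with Pdgfrb alone (PDGFRβ-S), 245 with Cspg4 alone (NG2-S) and 3731 with neither (DN). The DP cells had the highest CPM of the 4 for 37 of 47 members, against 38.9% of all genes. Cells with a Pdgfrb UMI lay past 2-fold of those without for 10 of 47 members, and all 10 were higher, against 3.04% of all genes. The median log2 ratio was 0.48, against 0.11 over all genes. The gates were not used in KO, where the gene that draws them is deleted.

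Adamtsl5 showed the largest ratio, at 1.03 CPM in cells with and 0.259 CPM in cells without a Pdgfrb UMI (1.99, 1.05 to 3.06). Adamts2 was at 24.2, 9.88, 6.39 and 4.01 CPM from DP through PDGFRβ-S and NG2-S to DN (with over without 1.61, 1.37 to 1.85). Adam19 was at 62.6, 34.7, 21.6 and 17.4 CPM (1.19, 1.07 to 1.31), Adamts18 at 58.9, 35.9, 21.1 and 19.4 CPM (1.06, 0.94 to 1.17) and Mmp23 at 38.6, 20.6, 11.8 and 11.5 CPM (1.08, 0.93 to 1.23). These 4 had the same order of gates, but the intervals of NG2-S and DN overlapped for each of them. The rarer Adamts8, Adamts16, Adamts17, Adamtsl4 and Mmp17 made up the 10. Adamtsl1 had another order, at 58.8 CPM in NG2-S, 37.2 in DP and 28.3 and 28.0 in the remaining gates, and Adamts6 was likewise highest in NG2-S at 28.3 CPM.

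**Figure D5:**
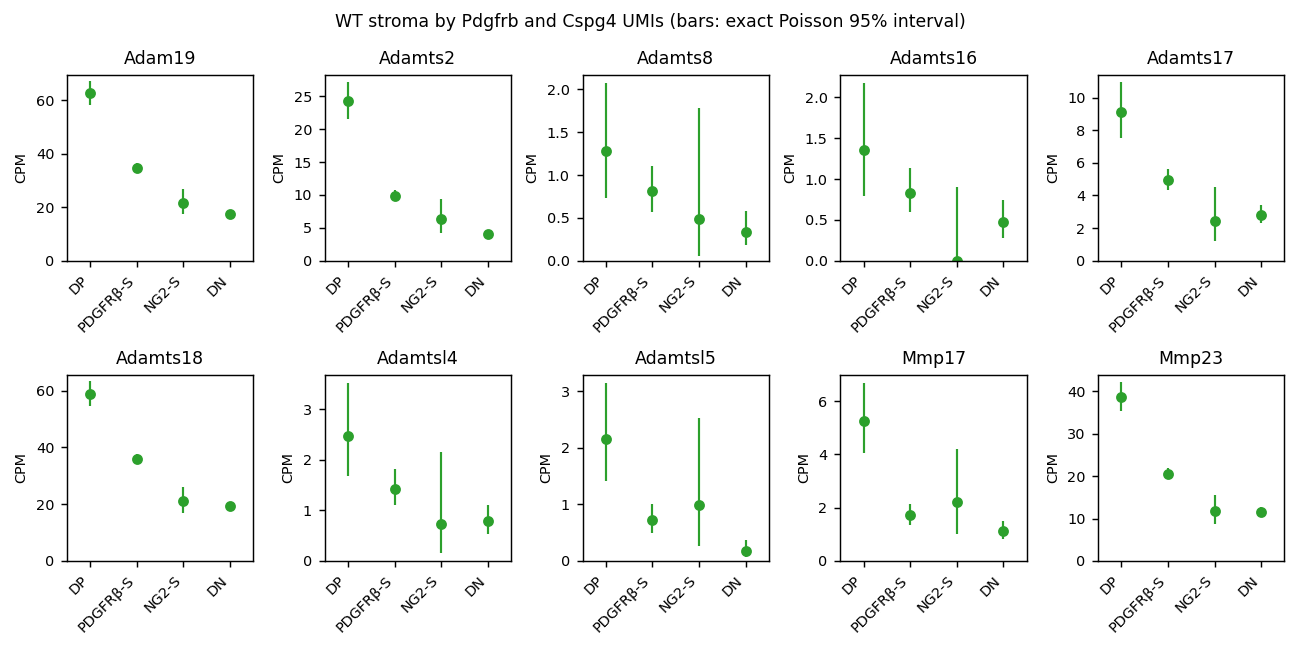
CPM in the 4 WT stromal gates (DP with a Pdgfrb and a Cspg4 UMI, PDGFRβ-S with Pdgfrb only, NG2-S with Cspg4 only, DN with neither) for the 10 members past 2-fold by Pdgfrb, with exact Poisson 95% intervals. DP is the highest gate for all 10, and the intervals are wide for members at a few CPM or less.

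Depth and class moved with these gates. Cells with a Pdgfrb UMI held a median of 17240 UMIs and those without 9419. Of DP cells, 46.3% were in the mural class, against 13.3% of PDGFRβ-S, 8.98% of NG2-S and 4.96% of DN cells. The sclerotome class, which led for Adamtsl1 in both libraries, held 66.9% of NG2-S cells. It held 21.5% of DP, 22.2% of PDGFRβ-S and 23.9% of DN cells. Within the mural class, 4 of 34 members lay past 2-fold (Adam19, Adamts15, Adamts17 and Mmp17, against 2.88% of all genes), within the sclerotome class 5 of 35 (Adam12, Adamts1, Adamts2, Adamts5 and Adamts18, against 1.62%) and within the other stroma 4 of 37 (Adamts2, Adamts4, Adamts18 and Adamtsl4, against 2.04%). All of these were higher in cells with a Pdgfrb UMI, though the interval of Mmp17 in mural cells spans 0. Adamts18 was at 26.1 and 12.1 CPM in sclerotome cells with and without a Pdgfrb UMI (1.11, 0.84 to 1.38) and at 44.8 and 20.03 CPM in the other stroma (1.16, 0.98 to 1.34). The part of depth in these differences was not tested.

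Genes that activate, bind or are cut by the module were taken from a list of 23, all of which were found. In stroma 1 of the 22 with at least 50 UMIs lay past 2-fold, against 4.06% of all genes, so the list does not stand out by this count. The 1 was the urokinase receptor Plaur, which holds an activator of plasmin at the cell surface. Plaur was at 7.83 and 3.1 CPM (-1.34, -1.53 to -1.15), and in mural cells at 25.1 and 8.20 CPM (-1.62, -1.93 to -1.31). Other genes of the plasmin system were lower in KO stroma by less than 2-fold, namely Plat at 44.3 and 32.5 CPM (-0.45, -0.51 to -0.38) and Plau at 0.677 and 0.547 CPM (-0.31, -0.84 to 0.22), whose interval spans 0. Serpine2, a protease inhibitor, was higher at 63.3 and 78.1 CPM (0.30, 0.25 to 0.35).

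The partners of the procollagen enzymes lay on both sides of 0. Pcolce, which enhances cleavage of the procollagen C-propeptide, was at 188 and 126 CPM (-0.58, -0.61 to -0.54), whereas Bmp1, the C-proteinase itself, was at 49.7 and 52.7 CPM (0.08, 0.03 to 0.14). Vcan, the proteoglycan versican that Adamts1, Adamts5 and Adamts9 cut, was at 407 and 498 CPM (0.29, 0.27 to 0.31). The proprotein convertases that remove the propeptides of these proteases were all higher in KO stroma, with Furin at 0.26 (0.16 to 0.37), Pcsk5 at 0.33 (0.24 to 0.42), Pcsk6 at 0.64 (0.37 to 0.91) and Pcsk7 at 0.47 (0.36 to 0.58). Reck, a membrane-anchored inhibitor of MMPs, was at 21.3 and 19.4 CPM (-0.13, -0.22 to -0.05). Of the regulators of ADAM sheddases, Tspan5 (0.33, 0.24 to 0.41) was higher, Tspan14 (-0.17, -0.26 to -0.08) and Tspan17 (-0.40, -0.63 to -0.18) were lower, and the intervals of Tspan15, Rhbdf1 and Rhbdf2 spanned 0.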

How the data were processed

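Droplet-based 3′ single-cell sequencing (10x Genomics) was done on whole AGM, with 1 WT and 1 KO library. The authors processed the reads with Cell Ranger 3.1.0 on mm10 (GRCm38), and the deposited values are raw UMI counts of every gene and barcode, with no cells called. From these counts, barcodes with at least 2000 UMIs and under 10% mitochondrial UMIs were kept, which left 150175081 UMIs in WT and 142222182 in KO. The members and gene lists were chosen with earlier results of these data known.

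Classes were gated by marker lists. A non-stromal class needed 3 or 4 of 7 to 9 markers and a gated stromal class 3, whereas the other stroma needed none. Thresholds were set on the markers alone after they were seen. Cells that passed 2 non-stromal gates (100 WT, 78 KO) were left out of the classes, and doublets were not treated otherwise. Expression is the CPM of UMIs summed over a class. With 1 library a genotype there was no test, and counts past 2-fold are set beside the share of all genes past it. Named members are the 4 with most UMIs in each group, those past 2-fold with their whole interval, those at 5 times stroma, the TIMPs and Adamts2, Adamts12, Adamts18, Adam19, Mmp16 and Mmp23. Others were named after their values were seen, where a count turned on them. The 3′ counts were not divided by length, so genes are not ranked against each other. Since the zinc site was read from the coding sequence as a histidine-glutamate motif, a site that differs from it would be missed, as in Adamts8.

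Alternatives covered cells, gates, scaling (among them TMM factors of edgeR 4.0.16), free RNA, low counts and the fold. Ratios, intervals and thinning were run on simulated counts. These varied by counting error alone, which the intervals assume, so they could not test variation between cells, embryos or libraries. Python 3.11.15, numpy 2.4.6, scipy 1.17.1 and R 4.3.3 were used.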

Additional observations from a re-analysis of the deposited data

Results flagged for a closer look

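In 7 of the 41 members with at least 50 UMIs in 2 or more stromal classes, against 7.22% of all such genes, the interval of the KO over WT ratio lay below 0 in one class and above 0 in another, and the difference between the classes was not tested. Visceral mesenchyme was the lower class for 6 of them. Adamts2 was at -2.28 there and 0.33 in mural cells, Adamts9 at -0.44 and 0.32, and Adamtsl1 at -0.87 and 0.26. Timp2 was at -0.32 in visceral mesenchyme and 0.23 in the sclerotome class, Mmp14 at -0.18 and 0.13, and Timp3 at -0.58 against 0.32 in the other stroma. Adam23 was at -0.40 in mural cells and 0.63 in the sclerotome class.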

How the results depend on the processing

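No paired analysis was possible because there was 1 library per genotype. The median log2 ratio in stroma (0.082) ranged from -0.076, without KO cells holding a Pdgfrb UMI, to 0.130, with genes of 200 or more UMIs. The Pdgfrb filter was applied to KO alone, and WT cells with such a UMI, which carried more of the module, were kept. The count of members led by the same class (32 of 51) ranged from 23 of 42, with a mitochondrial limit of 5%, to 37 of 59, with genes of 20 or more UMIs. The counts past 2-fold are small and moved easily. At the main setting, the shares of all genes past 2-fold were 5.24% over all cells, 4.06% in stroma, 3.04% by Pdgfrb UMI and 4.36% in visceral mesenchyme. The counts under other settings are given without such a share, so they are no result about the members. Over all cells (4), they were 2 with a mitochondrial limit of 5%, 7 with genes of 20 or more UMIs, 1 with 200 or more, and 9 at 1.5-fold. In stroma (1), they were 2 with the 5% limit, 2 without KO cells holding a Pdgfrb UMI, 2 after subtraction of free RNA, 4 with genes of 20 or more UMIs, 9 at 1.5-fold, and 0 with 1 more marker per gate, per-cell CPM, genes of 200 or more UMIs or an equal class mix. By Pdgfrb UMI (10), they were 5 at 200 or more UMIs and 18 at 1.5-fold, and in visceral mesenchyme (5 of 33) they were 3 and 9, and 7 of 18 under the 5% limit. Settings for these last 2 counts, and the removal of mixed non-stromal cells, were chosen after seeing the data. Of 442 ratios of 34 named members, 398 stayed within their interval, and 23 of 27 members whose interval excludes 0 kept their sign throughout. Adamts9 (-0.02), Adamtsl1 (-0.11) and Mmp2 (0.0087) changed sign under the 5% limit, under which Adamts1 was at -1.19, and Adamts18 was at -0.09 without KO cells holding a Pdgfrb UMI and at -0.07 by per-cell CPM. The cause was not tested. At these depths, members of a few CPM cannot be compared in the small classes.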
